A study of Mus musculus with 41 samples.

Results

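Marco, Msr1, Cd68, Gpnmb, Ctsk, Ctsd, Ctsb and Lgals3 are genes that macrophages use to take up particles and to break down what they have swallowed. These 8 genes, of 27962 gene names on the arrays, were found by their names on 13 probes. The other Gpnmb probe, A_52_P417819, was not well above background on any of the 28 mRNA arrays, so 12 probes were measured and no fold is given for that one. The gene symbols were matched as the array design lists them.

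The mice were female C57BL/6BomTac mice (C57BL/6 in the labels) that had been time-mated but had not conceived. Exposed mice breathed 40 mg/m3 (the labelled concentration) of nanoTiO2 (rutile particles with a polyalcohol coat) by inhalation of the whole body, 1 hr per day on 11 days, and control mice breathed filtered air. Lung RNA came from 7 exposed and 6 control mice and liver RNA from 7 exposed and 8 control mice, killed 5 days after the last exposure. The labels of the mRNA arrays give the age only as a gestation-day equivalent, while those of the study's miRNA arrays give 11 to 13 weeks. Each array held Cy5-labelled RNA of 1 mouse, from random pieces of the left lung or of a liver section, and a Cy3-labelled universal mouse reference RNA made from 11 cell lines. A level is therefore the log2 ratio of the mouse to the reference RNA, 0 means equal signal, and levels of different genes are not compared. In bulk RNA, more macrophages, more RNA per macrophage and RNA from other cells cannot be told apart.

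Alveolar macrophages clear inhaled particles from the air spaces, and Kupffer cells are the resident macrophages of the liver. Class A scavenger receptors such as Marco and Msr1 bind particles and bacteria at the cell surface, and the swallowed vesicle then fuses with lysosomes. Lysosomes are acidified by a proton pump and hold cathepsins and other acid hydrolases. Many of their genes carry the E-box CACGTG, which transcription factors of the MiT/TFE family bind.

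The probe of Ctsk, the gene with the largest lung difference among the members, and that of Lgals3, whose lung difference was nearest to 0, are shown as the sequences that were hybridised. Each is 60 bases, and its coordinates in the array file (build mm7, plus strand) span more than that, chr3:95380674-95380918 for Ctsk and chr14:42712515-42713331 for Lgals3, so that its bases do not lie in 1 stretch of that build.
Ctsk probe: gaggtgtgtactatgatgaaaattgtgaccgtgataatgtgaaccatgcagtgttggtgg
Lgals3 probe: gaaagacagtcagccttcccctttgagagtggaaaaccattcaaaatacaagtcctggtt

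The 250 bases before the transcription start, taken from RefSeq promoters of build GRCm38.p6, were found for 6 of the 8 genes. They were searched on both strands for CACGTG, for CATGTG (a related E-box), for TGACTCA (the AP-1 site) and for GAGGAA (a core bound by PU.1). Of 32851 such stretches 6.02% held CACGTG, 12.3% CATGTG, 4.46% TGACTCA and 23.3% GAGGAA. Shown are the 2 genes called for the lung minus liver difference given below (Ctsk, chr3:95498960-95499209, plus strand, and Gpnmb, chr6:49036268-49036517, plus strand). A lysosomal protease that was not called is shown with them (Ctsd, chr7:142387828-142388077, minus strand). Capitals mark matches to a motif, and the bases read 5′ to 3′ on the strand of the gene.
Ctsk: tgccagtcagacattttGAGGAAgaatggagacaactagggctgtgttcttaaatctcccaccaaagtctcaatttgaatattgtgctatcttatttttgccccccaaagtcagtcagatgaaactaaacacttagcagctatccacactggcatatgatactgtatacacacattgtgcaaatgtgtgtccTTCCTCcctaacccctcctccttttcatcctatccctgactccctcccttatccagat
Gpnmb: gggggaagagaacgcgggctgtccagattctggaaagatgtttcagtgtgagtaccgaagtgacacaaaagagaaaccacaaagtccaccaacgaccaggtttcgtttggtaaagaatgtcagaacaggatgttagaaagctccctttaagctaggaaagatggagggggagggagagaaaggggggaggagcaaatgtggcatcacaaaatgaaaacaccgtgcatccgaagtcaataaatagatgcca
Ctsd: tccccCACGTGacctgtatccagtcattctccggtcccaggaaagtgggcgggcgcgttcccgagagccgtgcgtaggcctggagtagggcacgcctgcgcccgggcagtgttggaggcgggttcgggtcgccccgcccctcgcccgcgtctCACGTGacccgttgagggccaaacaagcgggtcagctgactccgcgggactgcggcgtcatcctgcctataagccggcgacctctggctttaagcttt
Ctsd held CACGTG at 245 to 240 and at 98 to 93 bases before the start. Ctsk held GAGGAA at 233 to 228 bases and, on the other strand, at 58 to 53 bases, and Gpnmb held none of the 4 motifs. Cd68 held TGACTCA at 2 places (149 to 143 and 24 to 18 bases, on the other strand) and GAGGAA once (225 to 220 bases), and Marco held GAGGAA at 146 to 141 bases. No match was found for Lgals3.

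In the lungs, Ctsk, Marco, Msr1 and Gpnmb were higher in exposed than in control mice, 1.94-fold, 1.48-fold, 1.43-fold and 1.40-fold. In each of the 4, every exposed value lay above every control value. Cd68, Ctsd, Ctsb and Lgals3 did not pass the test. The test was limma over all probes, with adjusted p under 0.05 (Benjamini-Hochberg) as the call. It called 4 of the 12 measured member probes, all higher, beside 0.194% of 41155 probes in all (0.173%, or 71 probes, higher and 9 lower). At an unadjusted p under 0.05 it held 9 of the 12, beside 7.17% of all probes. Every exposed value lay above every control value for 4 of the 12 member probes and for 0.36% of all probes, and below every control value for 0 of 12 and 0.228%.

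**Figure D1:**
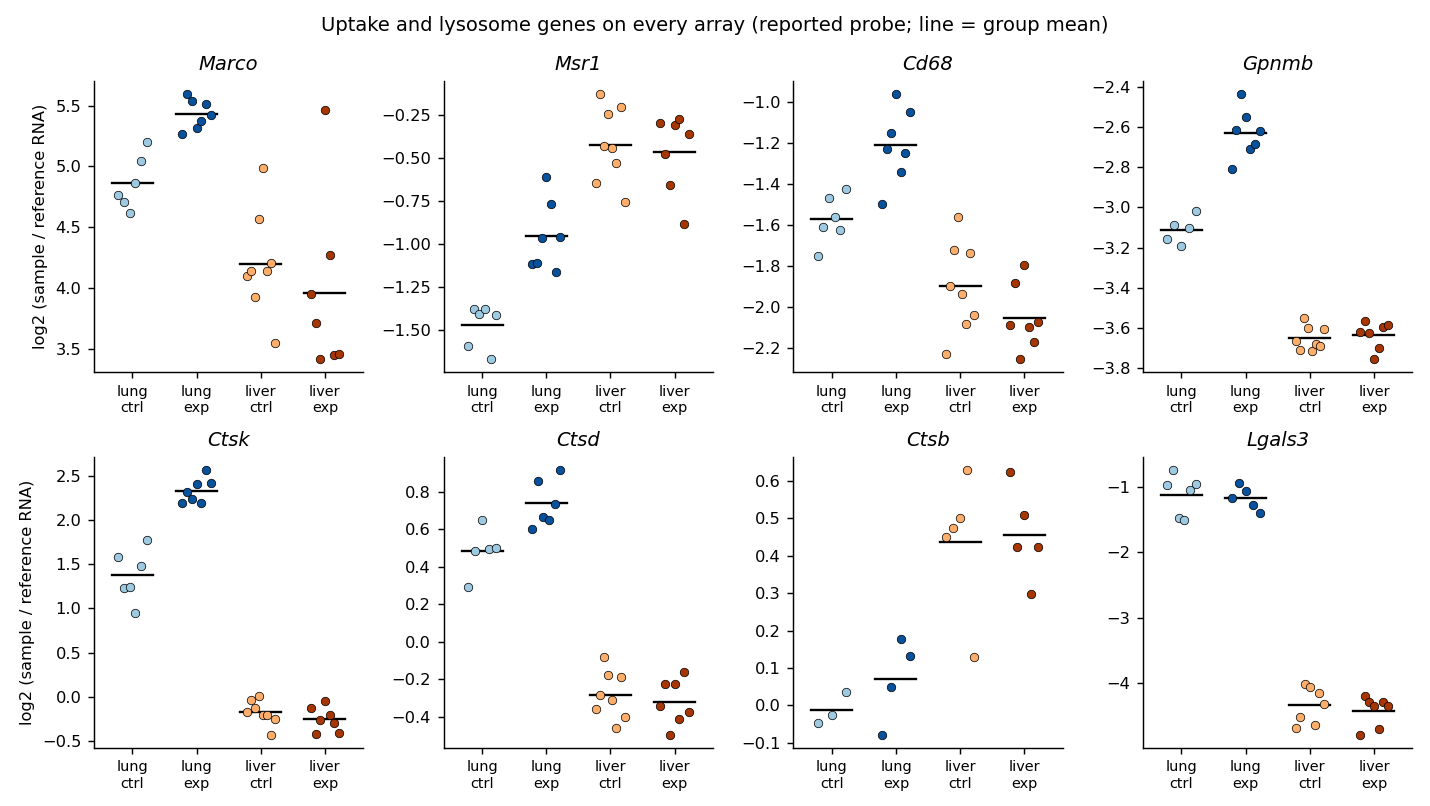
Log2 ratio of mouse to reference RNA for the reported probe of each gene on every array, in control (ctrl) and exposed (exp) lung and liver. Each point is 1 mouse, the line is the group mean, and each panel has its own scale. In the lung Marco, Msr1, Gpnmb and Ctsk show no overlap between exposed and control mice, and in the liver the groups overlap for all 8 genes.

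Among the uptake receptors, Marco, a scavenger receptor of alveolar and other tissue macrophages, had log2 ratios from 5.27 to 5.59 (median 5.42) in exposed lungs and from 4.62 to 5.20 (median 4.81) in control lungs. The lowest exposed mouse was thus just above the highest control mouse. The difference was 0.57 (95% interval 0.38 to 0.75, adjusted p = 0.00937). The reference channel of the Marco spot, which holds the same RNA on every array, was itself 0.46 higher (log2 Cy3 signal) on exposed than on control arrays (unadjusted p = 0.00171, adjusted p = 0.955). The ratio is that of the mouse over the reference signal, so it holds the differences of both channels. The part of the reference channel difference in the Marco ratio was not tested. On each slide the exposed samples took positions 1 and 2 and the controls 3 and 4, and an effect of position cannot be told apart from one of exposure.

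Msr1, the class A scavenger receptor that takes up modified lipoproteins and particles, has 3 probes. On the brightest, A_51_P404846, exposed lungs ranged from -1.16 to -0.61 (median -0.97) and control lungs from -1.67 to -1.38 (median -1.41). The groups were apart by 0.52 (0.33 to 0.70, adjusted p = 0.0193). The other probes gave 0.29 (A_52_P607128, adjusted p = 0.230) and 0.18 (A_52_P127130, adjusted p = 0.527), so the call rests on 1 of 3 probes. It was lost without control replicate 24 (adjusted p = 0.0615) or 32 (adjusted p = 0.0541). Those 2 dimmer probes were well above background on 4 and on 3 of the 6 control lung arrays.

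Cd68, a glycoprotein of endosomes and lysosomes that is used as a macrophage marker, ranged from -1.50 to -0.96 (median -1.23) in exposed and from -1.75 to -1.42 (median -1.58) in control lungs. The groups overlapped by the lowest exposed mouse, and the difference of 0.36 (0.19 to 0.53) did not pass the test (adjusted p = 0.102). Without that mouse, exposed replicate 1, the difference was 0.41 (adjusted p = 0.0306). Cd68 was called in only 1 of the 13 fits that left out 1 array (adjusted p up to 0.227), and in 0 of 12 other settings.

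Gpnmb, a transmembrane glycoprotein of lysosomes and melanosomes, ranged from -2.81 to -2.44 (median -2.62) in exposed lungs. The 5 control lungs with a value (the spot of replicate 29 was marked as an outlier and left out) had -3.16, -3.09, -3.19, -3.10 and -3.02. The difference of 0.48 (0.36 to 0.61, adjusted p = 0.00153) was called. Its level was below that of the reference RNA in every lung.

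Among the proteases, Ctsk, cathepsin K, a collagen-degrading cysteine protease best known from osteoclasts, showed the largest difference. Exposed lungs ranged from 2.19 to 2.57 (median 2.32) and control lungs from 0.95 to 1.77 (median 1.36). The gap between the groups was larger than the whole range of the exposed mice. The difference was 0.96 (0.72 to 1.19, adjusted p = 0.000655), from means of 2.33 ± 0.14 (SD, n = 7) and 1.38 ± 0.29 (SD, n = 6).

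Ctsd, the aspartic protease cathepsin D, gave 0.25 (0.10 to 0.41, adjusted p = 0.382) on the reported probe, with 6 exposed lungs from 0.60 to 0.92 and 5 control lungs from 0.30 to 0.65. Its second probe, A_52_P35960, gave 0.24 (adjusted p = 0.659). Both probes thus gave a like size without a call. Ctsb, the cysteine protease cathepsin B, had a value on 4 exposed and 3 control lung arrays, since its bright spot was marked as an outlier on the others. The exposed values were -0.08, 0.05, 0.13 and 0.18 and the control values -0.05, -0.03 and 0.03, a difference of 0.08 (adjusted p = 0.842). The second Ctsb probe, A_52_P433889, gave 0.18 (adjusted p = 0.708) over all 13 arrays.

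Lgals3, galectin-3, a sugar-binding lectin that gathers on damaged lysosomes, was the member with a negative lung difference, -0.05 (-0.35 to 0.24, adjusted p = 0.954). The 5 exposed lungs with a value had -1.17, -1.27, -1.39, -0.95 and -1.07, and the 6 control lungs ranged from -1.51 to -0.74. The exposed values lay inside the control range, and the interval still allows differences in either direction.

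**Figure D2:**
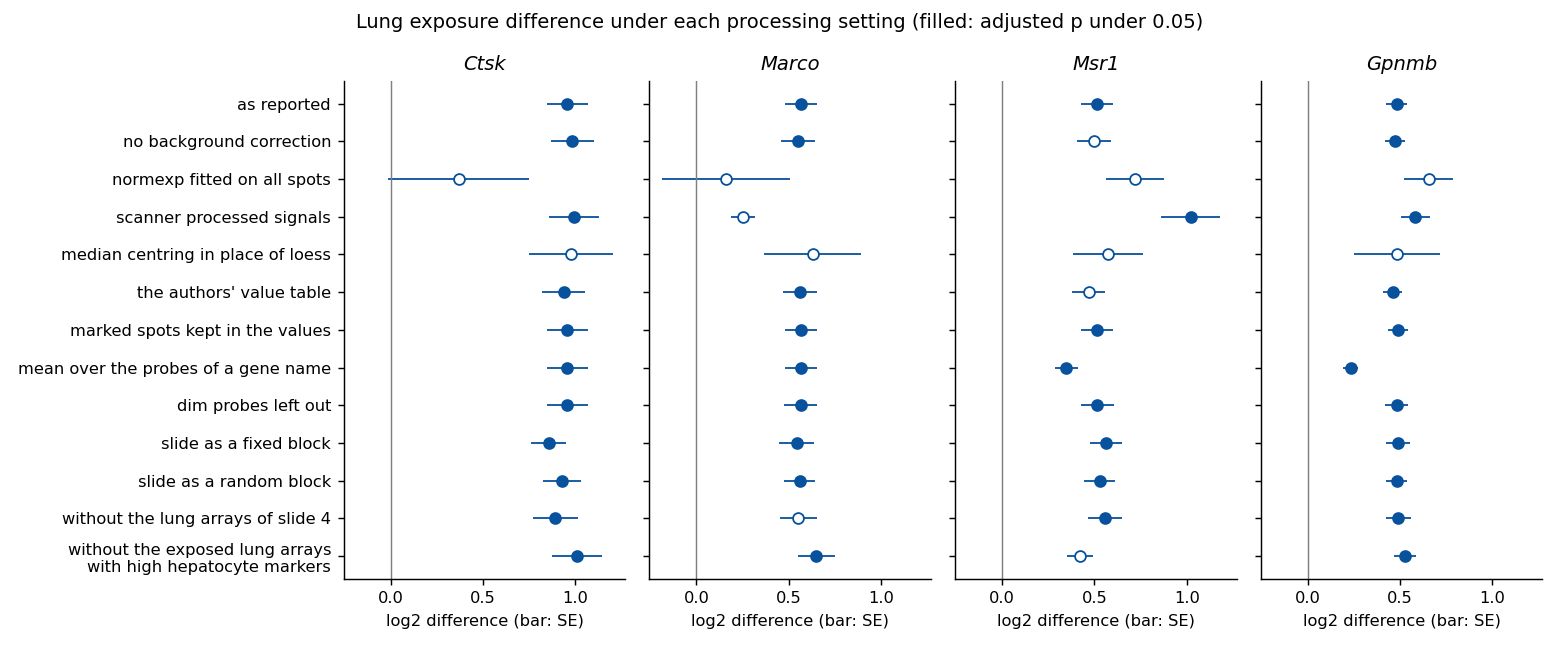
Lung difference (exposed minus control, log2 ratio, x axis) of the 4 called genes as reported and under 12 other settings (y axis), with its standard error (SE). Filled points passed the adjusted p of 0.05. The differences are above 0 in every setting, and no gene passed with the background model fitted on all spots or with median centring.

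The calls of the 4 genes depended on the processing. The background model was fitted without spots marked as outliers by the software, since with all spots it was pulled on some arrays (background mean in Cy5 down to -608.6 on exposed lung replicate 23, against -5.16 to -4.12 over all lung arrays without them). Fitted on all spots, the differences were 0.37 for Ctsk, 0.16 for Marco, 0.72 for Msr1 and 0.65 for Gpnmb, and none was called (adjusted p 0.73, 0.87, 0.49 and 0.43). With median centring in place of loess they were 0.98, 0.63, 0.57 and 0.48, with adjusted p = 1.00 for each. Ctsk and Gpnmb were called under the other 10 settings, Marco under 8 and Msr1 under 7 of them.

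By slide, the Ctsk difference was 0.85, 1.14 and 0.67 on slides 1, 2 and 3, that of Marco 0.69, 0.80 and 0.22, that of Msr1 0.37, 0.42 and 0.85 and that of Gpnmb 0.41, 0.76 and 0.43. Slide 4 held 2 exposed and no control lungs. All 12 within-slide differences were positive, which had to follow, since every exposed value of these genes lay above every control value. With slide as a fixed block all 4 genes were called (adjusted p 0.00172, 0.0439, 0.0181 and 0.00753). Without slide 4 Marco was not called (0.55, adjusted p = 0.0709).

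Liver transcripts differed between lung samples. The mean log2 ratio over 10 hepatocyte markers was 2.78, 1.86 and 1.76 on exposed lung replicates 1, 19 and 13, and 0.55 to 1.01 on the other 4 exposed and 0.32 to 1.05 on the control lungs. All 10 markers were higher in exposed lungs (median difference 0.74, none called, 6 at an unadjusted p under 0.05). Without those 3 arrays Ctsk was 1.01 (adjusted p = 0.0132), Marco 0.65 (adjusted p = 0.0380) and Gpnmb 0.52 (adjusted p = 0.00626), as large as with them, and Msr1 0.42 (adjusted p = 0.0681).

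In the liver, none of the 8 genes differed between exposed and control mice at the threshold. Limma called 0 of the 12 member probes and 0 of 41143 probes in all (0% called, and 2.36% at an unadjusted p under 0.05). No member probe had every exposed value above, or every one below, the control values, as 0.0583% and 0.112% of all probes did. One member probe, Msr1 A_52_P607128, had an unadjusted p under 0.05, at -0.18 (unadjusted p = 0.0396). The reported probes ran from -0.24 (Marco) to 0.02 (Ctsb and Gpnmb), 6 of 8 below 0, with adjusted p = 1.00 for each.

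Marco varied most in the liver, from 3.42 to 5.46 (median 3.72) in exposed and from 3.55 to 4.99 (median 4.14) in control mice, a difference of -0.24 (-0.81 to 0.33). The highest exposed liver, replicate 13, stood above every control. Gpnmb varied least, from -3.75 to -3.57 and from -3.72 to -3.55, and its interval, -0.07 to 0.10, was the narrowest. For Msr1 the livers ranged from -0.88 to -0.28 and from -0.75 to -0.13, and for Cd68 from -2.25 to -1.79 and from -2.23 to -1.56. In each of these genes the exposed and control livers overlapped.

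Ctsk was well above background on 0 of 7 exposed and 4 of 8 control liver arrays, so that its liver difference (-0.07, interval -0.22 to 0.07) was not measured well and no fold is given. Ctsd had -0.04 (-0.17 to 0.10), Ctsb 0.02 (-0.18 to 0.22) and Lgals3 -0.08 (-0.34 to 0.18). These intervals cover differences of either sign. Since marked spots were left out, Ctsb had a value on 5 exposed and 5 control livers, and Lgals3 on 7 exposed and 7 control livers.

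**Figure D3:**
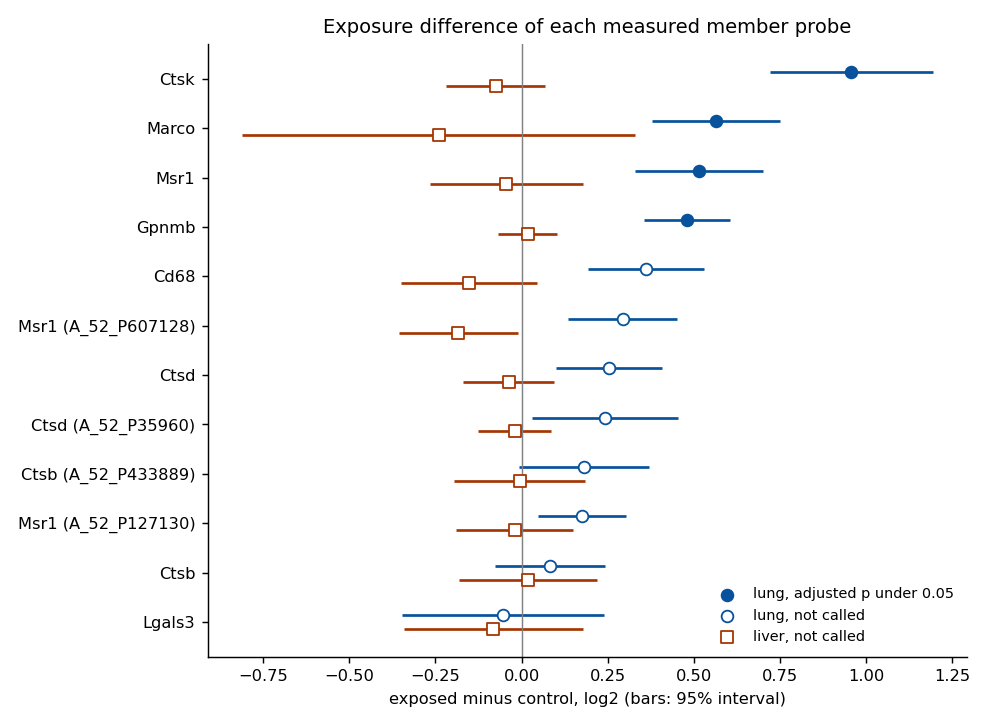
Difference between exposed and control mice (log2 ratio, x axis) for the 12 measured member probes (y axis) in lung (circles) and liver (squares), with 95% intervals. Filled symbols passed an adjusted p of 0.05. The lung differences run from -0.05 to 0.96 and the liver differences from -0.24 to 0.02.

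The difference between the organs was tested directly, as the lung difference minus the liver difference over all 28 arrays. Ctsk (1.03, SE 0.13, adjusted p = 5.89e-05) and Gpnmb (0.46, SE 0.068, adjusted p = 0.000571) passed, 2 of the 12 member probes, both higher, beside 0.136% of 41125 probes (0.122% higher). At an unadjusted p under 0.05 there were 8 of 12, beside 4.24%. All 12 member probes, which stand for 8 genes, had a positive value, beside 51.2% of all probes. Marco (0.80, adjusted p = 1.00), Cd68 (0.51, adjusted p = 0.200), Msr1 (0.56, adjusted p = 0.259), Ctsd (0.29, adjusted p = 0.798), Ctsb (0.06, adjusted p = 1.00) and Lgals3 (0.03, adjusted p = 1.00) did not pass, so that their lung and liver differences are not shown to differ. For Ctsk the liver part of this value rests on arrays mostly at background, as above, and over 11 other settings it ran from 0.47 to 1.58 and was called in 9. The value of Gpnmb ran from 0.28 to 1.15 over the 11 settings and was called in 8.

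Most of the mice gave both organs, 6 exposed and 6 control, and mouse was used as a block. With mouse as a fixed block and only these 12 mice, Msr1 passed (0.60, adjusted p = 0.0431) and Gpnmb did not (0.46, adjusted p = 0.104), while Ctsk stayed called (1.06, adjusted p = 0.0177). With mouse as a random block no call of a member changed. Without the exposed liver replicate 13, the highest of its group for Marco, Marco passed (1.05, adjusted p = 0.0442). That was 1 of 28 fits that left out 1 array, and Marco passed in no other.

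In control mice, the members differed between the organs in both directions. Lgals3 was 9.34-fold, Marco 1.58-fold, Gpnmb 1.45-fold and Cd68 1.25-fold higher in lung, and Msr1 was 2.07-fold higher in liver. The reported Ctsb probe was 1.37-fold higher in liver, but it had a value on only 3 control lungs and 5 control livers. Ctsk was higher in lung too, but its fold is not given, since only 4 of 8 control livers were well above background: the log2 difference was 1.55 as reported and 3.42 with the scanner's processed signals. All 8 reported probes passed, and 11 of the 12 member probes did (6 higher and 5 lower in lung), beside 59.8% of 41149 probes (30.2% higher in lung). The unadjusted count was the same 11 of 12, beside 62.7%. Lung and liver arrays lay on different slides and were read with different software versions, so that organ and slide cannot be told apart.

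The largest of these differences, Lgals3 at 3.22 (2.95 to 3.50, adjusted p = 1.13e-17), came from control lungs between -1.51 and -0.74 and control livers between -4.68 and -4.01. Msr1 was lower in lung on all 3 probes (-1.05, -1.35 and -0.87). The 2 probes of Ctsd disagreed, 0.77 (adjusted p = 1.37e-10) on the reported and -0.42 (adjusted p = 2.34e-05) on the other probe, and so no order of the organs is given for Ctsd. The second Ctsb probe, with values on 6 control lungs and 6 control livers, was not called (0.04, adjusted p = 0.763). No order of the organs is therefore given for Ctsb either. Marco, with 0.66 (adjusted p = 0.0122), was not called in 5 of its 10 alternatives, among them mouse as a fixed block (0.56, adjusted p = 0.0529).

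By the order of the 4 group means, Marco, Cd68, Gpnmb, Ctsk and, on its reported probe, Ctsd were highest in exposed lungs. For Ctsk and Gpnmb the order ran from exposed lungs over control lungs to the livers, with a gap at each step except between the 2 liver groups. For Cd68 each group overlapped its neighbour, and for Marco all but the exposed and the control lungs did. Msr1 was highest in the livers on all 3 probes. On its reported probe the exposed lungs overlapped the exposed livers and lay above the control lungs, while on the other 2 probes they lay below the exposed livers and overlapped the control lungs. The reported probe of Ctsb was highest in the livers too, with overlap at each step, and for Lgals3 a gap parted both lung groups from both liver groups.

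Other genes of uptake and digestion were counted in the lungs by list. Of 25 other scavenger and phagocytic receptors 16 were higher and 9 lower (median 0.05), and none was called. The smallest p was that of Clec4n, the lectin Dectin-2, at 0.54 (adjusted p = 0.0917). With slide as a fixed block Cxcl16, a chemokine that also acts as a scavenger receptor and is named here after its values were seen, was called (0.39, adjusted p = 0.0325). Of 35 acid hydrolases 28 were higher and 7 lower (median 0.07), none called and 9 at an unadjusted p under 0.05. Lgmn, the asparaginyl protease legumain, had the smallest p there (0.26, adjusted p = 0.0615), and was called in 4 of 12 other settings. Of 11 other cathepsins 8 were higher (median 0.08), none called, with Ctsc, cathepsin C, at 0.28 (adjusted p = 0.0752), which was called in 1 of 12 other settings. Over all probes 50.6% were higher and the median was 0.00094, and over the 8 reported probes 7 were higher and the median was 0.42. Members and lists were chosen with earlier results of these data known, so setting them side by side is no test.

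Of 18 proton pump subunits 15 were higher (median 0.05), none called, and Atp6v1c1 had the smallest p (0.27, adjusted p = 0.53). Of 15 lysosomal membrane and lipid export proteins 10 were higher (median 0.03), none called, and Lamp3, a membrane protein of lysosomes and lamellar bodies, was at 0.31 (adjusted p = 0.288). The 4 MiT/TFE factors lay between -0.05 (Mitf) and 0.08 (Tfec), the smallest p being that of Tfe3 (0.06, adjusted p = 0.789). Of 9 cystatins, inhibitors of cysteine cathepsins, 3 were higher (median -0.06), with Cst8 at -0.47 (adjusted p = 0.439), and of 8 other galectins 4 were higher (median 0.00), with Lgals2 at -0.24 (adjusted p = 0.605). None of these was called. With the background model fitted on all spots the medians of the scavenger receptors (-0.06), the membrane proteins (-0.02) and the galectins (-0.05) were below 0.

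**Figure D4:**
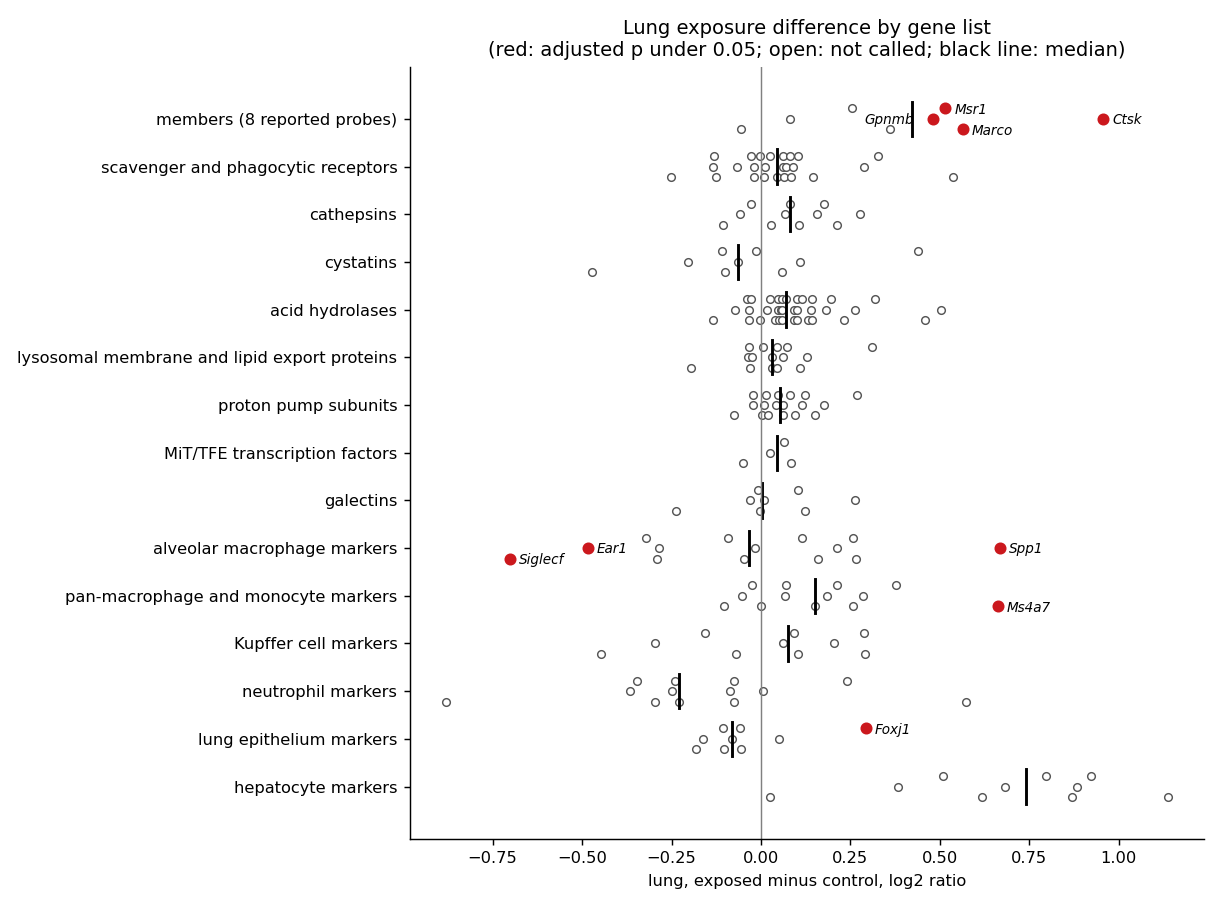
Lung difference (exposed minus control, log2 ratio, x axis) of every gene of each list (y axis), 1 point per gene, with list medians as black lines. Red points were called. The 8 members have a median of 0.42 with 4 called, the 8 lists of uptake and lysosome genes have medians from -0.06 to 0.08 with none called, and the 10 hepatocyte markers have a median of 0.74. Members and lists were chosen with earlier results of these data known, and the lists leave the members out.

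Markers of macrophages moved in both directions. Of 14 alveolar macrophage markers 6 were higher and 8 lower (median -0.03), and 8 had an unadjusted p under 0.05, 4 of them higher. Only 1 was called higher, Spp1 (the secreted matrix protein osteopontin, not specific to alveolar macrophages), which rose by 0.67 (adjusted p = 0.0323). Siglecf, a sialic acid-binding surface lectin, fell by 0.70 (adjusted p = 0.0105) and Ear1, a ribonuclease, fell by 0.48 (adjusted p = 0.000604). The mean of this list ran from 1.79 to 1.97 in exposed and from 1.85 to 2.07 in control lungs, over the 12 markers with a value on every lung array. Of 13 pan-macrophage and monocyte markers 10 were higher (median 0.15), and Ms4a7, a membrane protein of monocyte-derived macrophages, rose by 0.66 (adjusted p = 0.00106). The mean of this list ran from 1.47 to 1.73 in exposed and from 1.23 to 1.45 in control lungs. It was taken over the 9 of 13 markers with a value on every lung array. The lowest exposed mean (1.475) was only just above the highest control mean (1.450). The part of these markers in the member differences was not tested. With the background model on all spots, or with median centring, none of these 4 marker genes was called, and on all spots the pan-macrophage median was -0.087. Spp1, Siglecf and Ear1 were not called with the scanner software's own signals, Spp1 and Siglecf not without the 3 arrays high in hepatocyte markers, and Spp1 not when any of 10 single arrays, or slide 4, was left out.

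Of 10 Kupffer cell markers 6 were higher in the lung (median 0.08), with Xlr3b at -0.45 (adjusted p = 0.653). Of 13 neutrophil markers 3 were higher (median -0.23), with S100a8 at -0.88 (adjusted p = 0.697), and no marker of either list was called. For lavage fluid, a different measure from RNA of lung tissue, the paper reports a larger share of neutrophils and a smaller one of macrophages after exposure. Of 9 lung epithelium markers with a test 2 were higher (median -0.08), and Foxj1, a factor of ciliated cells, rose by 0.29 (adjusted p = 0.0372). Foxj1 was called in 5 of 12 other settings and in 3 of the 13 fits that left out 1 array, and its difference was -0.32 with the background model on all spots. Hepatocyte markers were led by Ahsg (0.88, adjusted p = 0.608). In the liver no gene of any list was called, and the pan-macrophage markers had a median of -0.21 with 12 of 13 below 0.

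The tissues matched their labels: in control mice Scgb1a1, the club cell secretory protein, was higher in lung by 6.53 (log2) and Apoh, a plasma protein made by hepatocytes, was lower in lung by 8.27. Clec4f, which marks Kupffer cells, was not well above background on any control lung array, and Siglecf on none of the control liver arrays.

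After the group means were taken out, the members did not form 1 block over the lung arrays. Among the 28 pairs of reported probes the correlation of deviations ran from -0.69 (Ctsd and Lgals3, 9 arrays) to 0.66 (Cd68 and Gpnmb, 12 arrays). Ctsk and Marco had 0.51, and Marco and Msr1 -0.31 (13 arrays each). These arrays share slides, and with so few arrays the values only describe them.

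Over 17801 probes well above background on all 13 lung arrays, the genes whose deviations were most like those of Ctsk were Il1rap (0.87), Kcnh6 (0.86) and Mettl7a (0.85). For Marco they were Trfp (0.91), 2810453I06Rik (0.89) and BC054438 (0.88), and for Msr1 they included Nubpl (0.87) and Ssu72 (0.86). For Cd68 they were Smpdl3b (0.94), Kbtbd11 (0.91) and RP23-280J3.2 (0.88), and for Gpnmb, over 12 arrays, Cdc2l5 (0.87), Stx5a (0.86) and Cln8 (0.86). For Ctsd, over 11 arrays, they were Cln6 (0.94), D11Wsu99e (0.93) and Angel2 (0.92), and for Lgals3, also over 11, Ard1, LOC626573 and 1300010F03Rik (0.95 each). Ctsb, with 7 arrays, had 4833428M15Rik (0.99), Psmd12 (0.98) and Trim47 (0.98). None of the genes named here was itself called in the lung. These are the highest of 17801 correlations over at most 13 arrays. Values this high can come from the selection alone, most of all for Ctsb with 7 arrays, and they show no relation between the genes.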

How the data were processed

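The deposited array files are scanner output (software version 9.5.3.1 for lung, 10.1.1.1 for liver), and hold unnormalized intensity values per spot. The authors also deposited log2 values made with LOWESS, used here as an alternative. Each array held 45018 spots, 43379 of them no controls, for 41174 probes. The liver files carry no gene names, which were taken from the lung files by spot number. Median intensities were corrected with normexp (offset 50). Spots marked as outliers by the software in either channel were left out of the background model and of the values, and arrays were normalized by loess. Spots of a probe were averaged. A gene's reported probe is the one with the highest mean log2 signal of both channels over the 28 arrays.

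Groups were compared with limma 3.58.1 (R 4.3.3, statmod 1.5.0, data.table, version 1.17.8), with Benjamini-Hochberg adjustment over all probes and a threshold of 0.05. Lung and liver were fitted separately, and organs were compared in 1 fit over 28 arrays. The Cy3 channel was tested after quantile normalization. Lung and liver arrays of 12 mice share the mouse, per the labels' numbers and the study's methods, and the correlation of their deviations from the group means ran from -0.13 to 0.33 (10993 probes).

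The members, the 14 lists (192 of 195 genes found) and the settings, the background model without marked spots included, were chosen with earlier results of these data known. In each list the called genes were named, or else the gene with the smallest p, and for each member the 3 genes with the most similar deviations, of which 1 is not reported here. Alternatives were other background corrections and normalizations, the authors' values, kept marked spots, a filter on dim probes, gene means, slide or mouse as a block and leaving out each array. Leaving out slide 4, or the exposed lungs high in hepatocyte markers, was chosen after seeing the data. Scripts were tested on simulated data. Between 61.26% and 67.52% of spots per lung array and 55.09% and 70.5% per liver array were well above background in Cy5. The number of arrays limits the precision. Figures were drawn with matplotlib 3.10.9.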

Additional observations from a re-analysis of the deposited data

Results flagged for a closer look

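The lung difference of Ctsk was 1.03 (log2, adjusted p = 5.89e-05) and that of Gpnmb 0.46 (adjusted p = 0.000571) above the liver difference, by limma's test of the difference between the organs. Ctsk was well above background on only 4 of 15 liver arrays, and its value ran from 0.47 to 1.58 over 11 other settings. That of Gpnmb ran from 0.28 to 1.15 over them and was called in 8. Exposed liver replicate 13 had a Marco log2 ratio of 5.46, far from the next exposed liver at 4.27. Control lung replicate 34 had -1.31 on the Msr1 probe A_52_P127130, below the next control lung at -1.15. By Dixon's criterion 2 of 47 groups of values held such a sample, and chance gives about 1 in 20.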

How the results depend on the processing

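With the background model on all spots, 0 member genes and 12 probes were called in the lung (4 and 80 as reported) and 0 and 5 for the lung minus liver difference (2 and 56). With median centring these were 0 and 4 in the lung and 0 and 12 for the lung minus liver difference, and 5 of 8 members were called between control organs. The scanner's processed signals gave 34 probes for the lung minus liver difference, slide as a random block 126 probes in the lung, and leaving out the exposed lungs high in hepatocyte markers 39 probes in the lung and 35 for the lung minus liver difference. The causes were not tested.

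Leaving out single arrays gave 3 to 5 member genes and 67 to 85 probes in the lung, and 2 to 3 member genes and 45 to 65 probes for the lung minus liver difference. Ctsk, Marco and Gpnmb were called in the lung without any 1 of the 13 arrays, and Msr1 was not called without control replicate 24 (adjusted p = 0.0615) or 32 (adjusted p = 0.0541). Mouse as a replicate block pairs lung and liver of 12 mice. As a fixed block it left 2 member genes called for the lung minus liver difference, Ctsk (1.06) and Msr1 (0.60), and ended the call of Gpnmb (0.46, adjusted p = 0.104) and that of Marco between control organs (0.56). It changed no other call of a member gene.

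Some values changed sign. On all spots these were Clec4n (-0.062), Xlr3b (0.034) and Foxj1 (-0.32) in the lung, Marco (0.53), Gpnmb (-0.50) and Ctsd (0.032, and 0.016 on A_52_P35960) in the liver, and Marco (-0.37) and Ctsb (-0.020) for lung minus liver. With median centring they were Lgals3 in the lung (0.25) and, in the liver, Msr1 (0.0441, and 0.0437 on A_52_P127130), Ctsd (0.16, and 0.14 on A_52_P35960), Ctsb A_52_P433889 (0.072) and Lgals3 (0.11). Lgals3 for lung minus liver was -0.057 with processed signals, -0.00899 with the authors' values and -0.13 without the exposed lungs high in hepatocyte markers, and Ctsb A_52_P433889 between control organs was -0.073 with processed signals and -0.065 with the authors' values. Ctsb in the liver was -0.0135 with marked spots kept, Gpnmb in the liver -0.0504 as a mean of probes, Ctsb in the lung -0.0176 with slide as a fixed block and Lgals3 in the lung 0.0524 without slide 4. Leaving out single arrays moved Lgals3 from -0.13 to 0.021 in the lung and from -0.051 to 0.10 for lung minus liver, and Ctsb A_52_P433889 between control organs from -0.026 to 0.10. In the liver it moved Msr1 from -0.091 to 0.026, Msr1 A_52_P127130 from -0.059 to 0.034, Ctsd A_52_P35960 from -0.038 to 0.0104, Ctsb from -0.058 to 0.067 and Ctsb A_52_P433889 from -0.044 to 0.051.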
